A study of Rattus norvegicus with 12 samples.

Results

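Mitochondrial and peroxisomal fatty acid oxidation was followed through 33 rat genes, chosen by name as genes of fatty acid oxidation and of ketone body use and found by gene identifier in the table of counts. They make up 33 of the 16511 genes in the table. The glands were whole snap-frozen mammary glands of Rattus norvegicus at postnatal day 21 (PND21), with 1 gland from each litter, and total RNA was sequenced. In all, 6 glands came from offspring exposed before birth to a high fat butter diet (HFB, libraries HFB 1 to HFB 6) and as many from offspring exposed to the control diet AIN (CTL, libraries CTL 7 to CTL 11 and CTL 14). The offspring themselves received AIN after birth. The submitted design starts the exposure on gestation day 1 and states more than a single end for it, so the window was not settled here. No other agent is named for these glands, and a whole gland at this age is fat pad with a small epithelial tree, so the values are averages over mixed cells. Total counts lay between 2320267 in HFB 1 and 2944680 in CTL 7.

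Fatty acids enter mitochondria bound to carnitine and are shortened there by repeated rounds of dehydrogenation, hydration, a further dehydrogenation and thiolysis, with electrons passed on through electron transfer flavoprotein. Peroxisomes shorten very long and branched chains before mitochondria take over. Adipocytes store fatty acids and also oxidise them, and in the mammary fat pad these genes can be read in fat cells, muscle, vessels and epithelium alike.

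Levels are given as CPM, counts relative to a library's total as scaled by edgeR's TMM method, and are compared between libraries for each gene and not between genes, since no transcript lengths were used. All 33 genes passed the filter on low counts. A level of 3 counts, the smallest taken as detectable, equalled between 0.945 and 1.30 CPM in a library, a limit that covers counting error only.

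HFB 6 and CTL 14 stood apart from the other 10 libraries, and this touches nearly every result. Their Spearman correlation with the mean of the other libraries, taken across genes, was 0.832 and 0.876, against at least 0.954 in the rest. The summed level of the 33 genes was 4051 CPM in HFB 6 and 3296 CPM in CTL 14, and it lay between 5876 and 7444 CPM in the others. As shares of all counts these genes took 0.392% and 0.379% in the pair, and up to 0.735% elsewhere. Relative to each gene's median over the 12 libraries, the median member was at -0.70 on the log2 scale in HFB 6 and at -1.02 in CTL 14, while the median of the 9382 genes tested was at -0.05 and -0.02. A total of 15 members in HFB 6 and 17 in CTL 14 lay more than 1 log2 unit below their median, compared with 18.7% and 12.5% of the genes tested. In the other libraries this held for 2 members in HFB 5, 1 in HFB 3 and 0 in each of the rest. The shares of the genes tested were 8.58% in HFB 5, 1.89% in HFB 3 and at most 2.86% in the rest. CTL 14 was the lowest library for 17 of the 33 members, against 12.9% of the genes tested. HFB 6 was the lowest for 9 of the 33, close to its share of the genes tested, 27.2%.

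**Figure D1:**
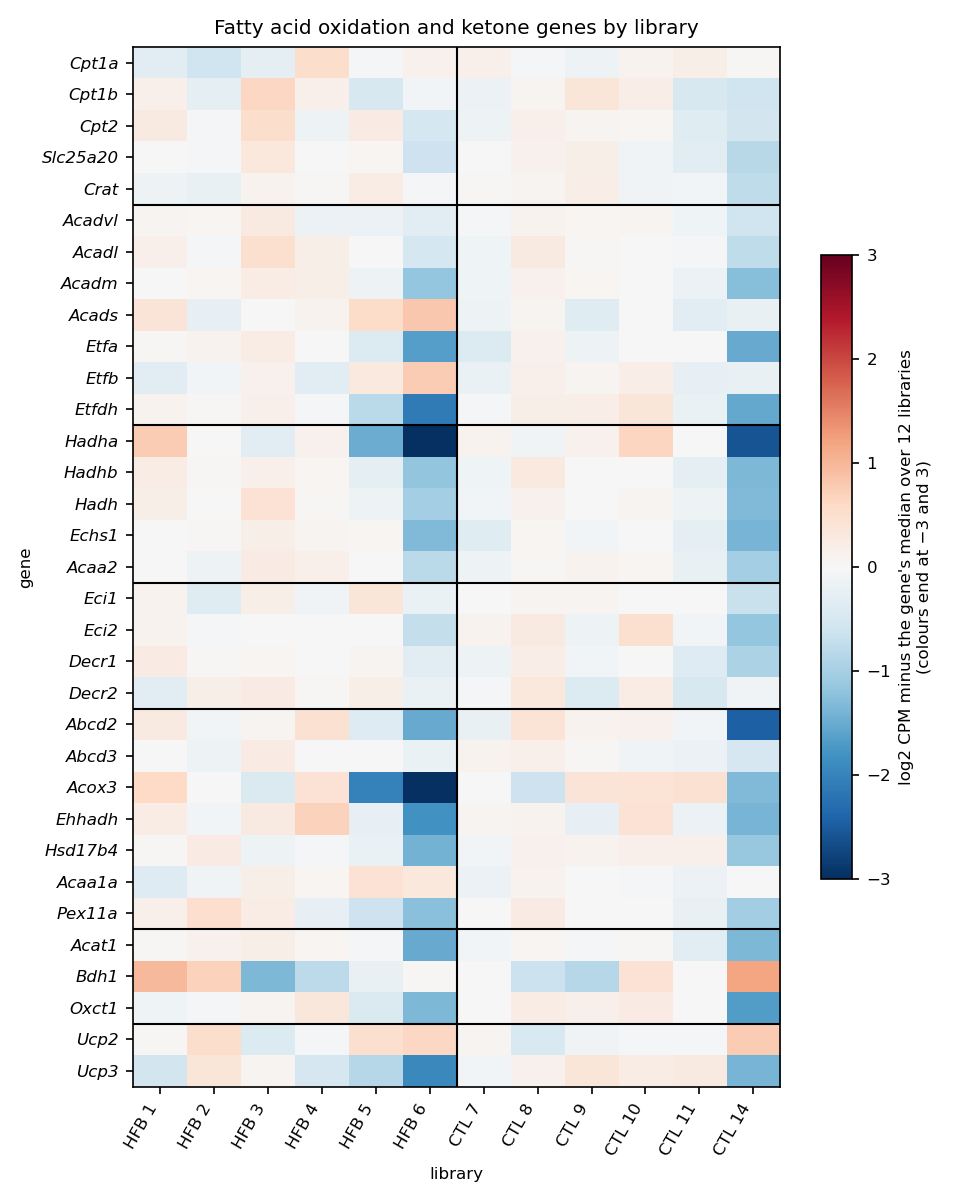
Level of each of the 33 genes (rows, ordered by role) in each library (columns), as log2 CPM minus the gene's median over the 12 libraries. The columns of HFB 6 and CTL 14 are blue for most genes, at a median of -0.70 and -1.02, and Etfb and Acads in HFB 6 and Ucp2 and Bdh1 in CTL 14 are red.

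Marker genes of fat and lymphoid cells also set this pair of libraries apart. The adipocyte score, the mean log2 CPM of 8 fat cell genes, was 10.03 in HFB 6 and 9.77 in CTL 14, against 10.89 to 11.25 in the others. The summed level of this list was 30024, 35469, 37116, 34258, 40802 and 22492 CPM in HFB 1 to HFB 6. In CTL 7 to CTL 11 and CTL 14 it was 34123, 38989, 38231, 31822, 32059 and 16948 CPM. Its most abundant gene was Fabp4 and none of its genes was at 0 in any library, so fat was measured in every gland. Of the 8 genes, 5 lay more than 1 log2 unit below their median in HFB 6 and 5 did so in CTL 14, beside 18.7% and 12.5% of all genes tested. In HFB 6, by contrast, Retn was at 1453 CPM and Cfd at 3927 CPM, both within the range of the other libraries. The lymphoid score, over 9 T and B cell genes, was 6.23 and 6.42 in the pair, 4.45 in HFB 1, 3.51 in HFB 2 and at most 2.31 in the rest. The summed lymphoid level was 225, 106, 18.7, 3.55, 15.2 and 1011 CPM in the HFB libraries in order. It was 23.9, 8.08, 42.9, 20.6, 3.71 and 954 CPM in the CTL libraries, and Cd79b, of B cells, was the most abundant of the list in HFB 6 and in CTL 14. HFB 1 and HFB 2, with the next highest lymphoid scores, had 6890.0 and 6628 CPM of the 33 genes, within the range of the remaining libraries. In bulk tissue fewer cells of a type and less RNA per cell cannot be told apart. The part of fat or lymphoid cells in the levels of the oxidation genes was not tested.

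**Figure D2:**
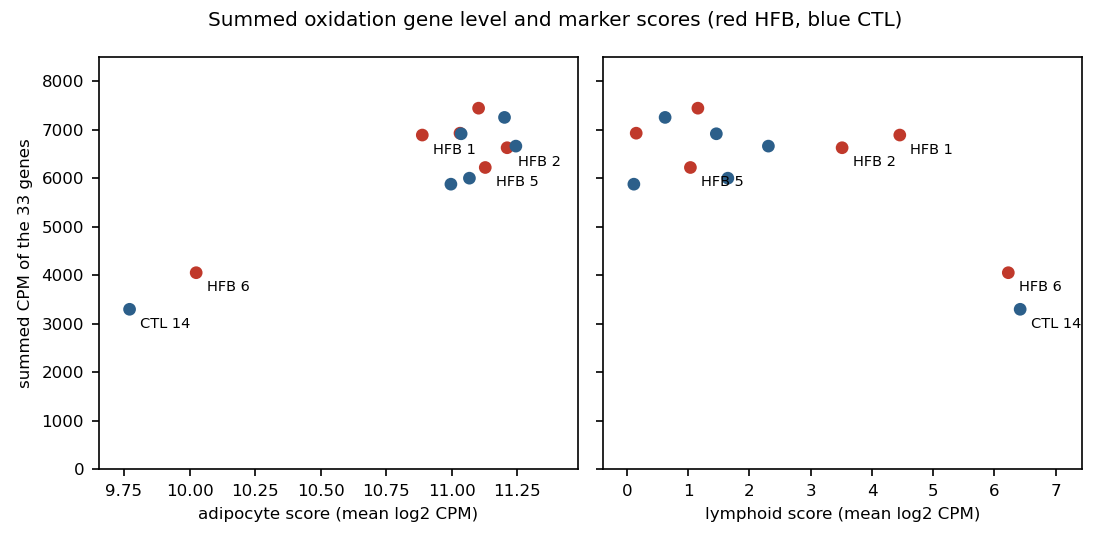
Summed CPM of the 33 genes (vertical axis) against the adipocyte score and the lymphoid score (mean log2 CPM of the marker list, horizontal axes), 1 point per library, red for HFB and blue for CTL. HFB 6 and CTL 14 sit apart at 4051 and 3296 CPM, and HFB 1 and HFB 2 have raised lymphoid scores with summed levels of 6890.0 and 6628 CPM.

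The first question was whether the diet before birth was followed by other levels of these genes at weaning. None of the 33 genes, and 0 of the 9382 genes tested (0%), passed an adjusted p of 0.05 in edgeR's quasi-likelihood test, adjusted over all genes tested by the Benjamini-Hochberg method. The smallest adjusted p of any gene was 0.999. At an unadjusted p under 0.05 there was 1 member, Acads, beside 2.34% of the genes tested (220 genes). DESeq2 and limma-voom also called 0 genes at an adjusted p of 0.05, with 2.92% and 6.53% of the genes and 1 and 0 members at an unadjusted p under 0.05. The study selected genes by a fold change above 2 with a p under 0.05 in microdissected epithelium of another comparison. That rule, carried over to these whole glands with the unadjusted p, took 11 genes and 0 members. No member had diet groups that did not overlap, which was the case for 0.139% of the genes. The fitted change was lower in HFB for 9 of 33 members and for 50% of the genes tested, with a median of 0.08 over the members and 0.00 over all genes. That count shifted most when CTL 14 alone was left out. Without CTL 14 the fitted change was lower in HFB for 22 of 33 members, with a median of -0.02, and without HFB 6 for 6 of 33. With both left out, an alternative chosen after the data had been seen, it was lower for 10 of 33, and no gene passed the adjusted threshold.

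**Figure D3:**
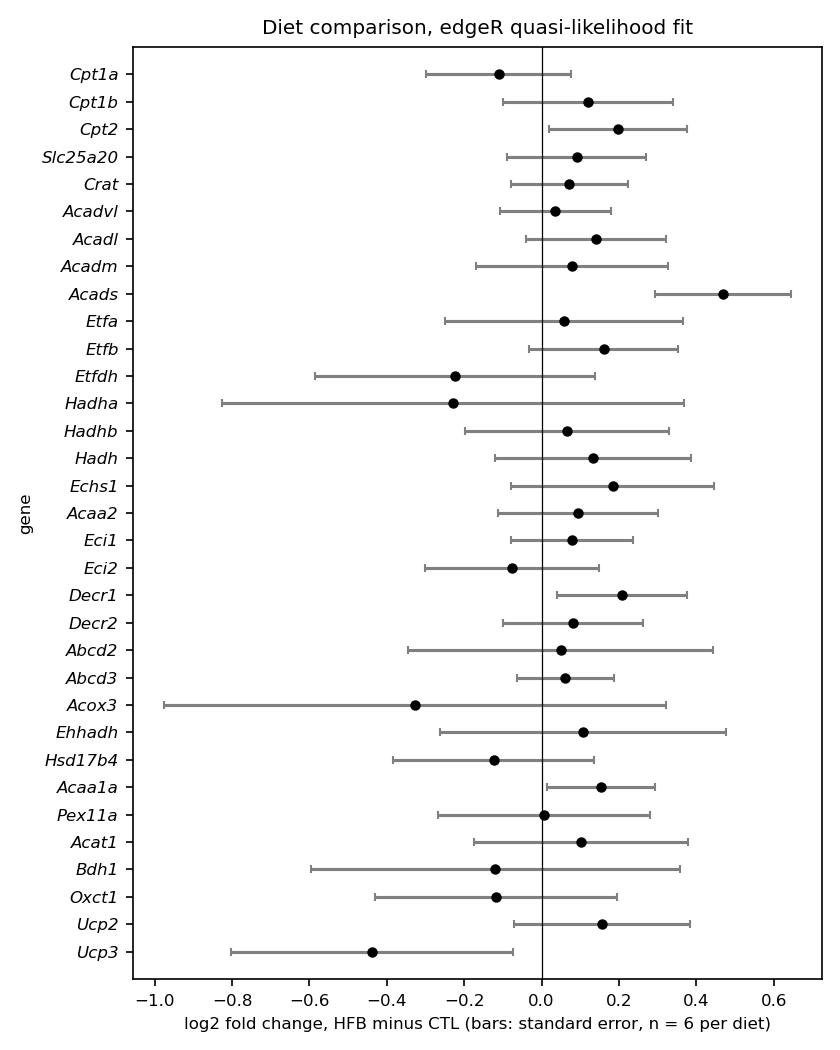
Fitted log2 fold change of each gene, HFB minus CTL, with its standard error (6 libraries per diet). The values run from -0.44 for Ucp3 to 0.47 for Acads, most bars cross 0, and no gene passed an adjusted p of 0.05.

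The carnitine shuttle carries long chains across the inner membrane. Cpt1a and Cpt1b encode the liver and muscle types of the outer membrane carnitine palmitoyltransferase, the step at which entry is controlled. Cpt1a had 24.2 to 53.6 CPM with a median of 33.4 in the HFB libraries, and 33.5 to 42.1 CPM with a median of 38.7 in the CTL libraries. For Cpt1b the lowest, median and highest values were 26.2, 37.7 and 56.9 CPM in HFB and 24.2, 35.8 and 47.2 CPM in CTL. The diets overlapped for both genes, and the fitted log2 changes were -0.11 ± 0.19 (SE, n = 6 per diet) and 0.12 ± 0.22 (SE, n = 6 per diet). HFB 4 was the highest library for Cpt1a and HFB 3 for Cpt1b. Counts of Cpt1b per count of Cpt1a ran from 0.618 in CTL 11 to 1.87 in HFB 3. Cpt2, the inner membrane transferase, had 57.4 to 120.3 CPM (median 89.2) in HFB and 55.7 to 92.6 CPM (median 80.0) in CTL. Its lowest values were those of HFB 6 and CTL 14, and the log2 change between diets was 0.20 ± 0.18 (SE, n = 6 per diet) with an unadjusted p of 0.288 in edgeR. Slc25a20, the carrier that exchanges acylcarnitine for carnitine, and Crat, which forms acetylcarnitine, ran from 57.8 to 129 CPM and from 71.6 to 142 CPM, and both were lowest in CTL 14. None of the 5 shuttle genes was more than 1 log2 unit below its median in HFB 6 or CTL 14, where their median positions were -0.09 and -0.59. Of all genes tested, 18.7% and 12.5% were that low there.

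Acyl-CoA dehydrogenases take the first electrons, each acting on a range of chain lengths. Acadvl, for very long chains, ran from 147 to 268 CPM, Acadl, for long chains, from 133 to 314 CPM and Acadm, for medium chains, from 99.7 to 280.4 CPM. All 3 were lowest in CTL 14 and next lowest in HFB 6, and Acadm was at 99.7 and 108 CPM there against at least 215 CPM in every other library. Acads, for short chains, went another way. It had 153, 99.97, 118, 126, 174 and 208 CPM in HFB 1 to HFB 6. In CTL 7 to CTL 11 and CTL 14 it had 106, 124, 91.4, 118, 94.9 and 101 CPM. HFB 6, HFB 5, HFB 1 and HFB 4 lay above every CTL library, HFB 4 only just, and HFB 2 and HFB 3 lay among them. The log2 change was 0.47 ± 0.18 (SE, n = 6 per diet), with an unadjusted p of 0.0187 and an adjusted p of 0.999 in edgeR's quasi-likelihood test, and 5 of 6 HFB libraries were above the CTL median. Without HFB 6 and CTL 14 the change was 0.32 ± 0.15 (SE), with an unadjusted p of 0.0539.

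Electrons from these dehydrogenases pass to electron transfer flavoprotein, whose subunits are encoded by Etfa and Etfb, and from it through Etfdh to ubiquinone. Etfa had 159 to 584 CPM (median 508) in HFB and 175 to 548 CPM (median 475) in CTL. Etfb had 222 to 475 CPM (median 285) in HFB and 235 to 319 CPM (median 271) in CTL. The subunits of this dimer parted in HFB 6, where Etfa was at its lowest, 159 CPM, and Etfb at its highest, 475 CPM. In CTL 14 Etfa was at 175 CPM and Etfb, at 239.8 CPM, was within the range of the other libraries. Counts of Etfa per count of Etfb were 2.27, 2.06, 1.89, 2.27, 1.09 and 0.335 in HFB 1 to HFB 6 and 1.55, 1.77, 1.51, 1.59, 2.12 and 0.729 in the CTL libraries in order. The ratio was lowest in HFB 6, CTL 14 and HFB 5, in that order, and the 9 other libraries lay between 1.51 and 2.27. Etfdh had 27.9, 123 and 137 CPM as lowest, median and highest values in HFB and 41.9, 131 and 160.2 CPM in CTL. HFB 6, CTL 14 and HFB 5 (70.7 CPM) again held its lowest places. Between the diets the log2 changes were 0.06 ± 0.31 (SE, n = 6 per diet) for Etfa, 0.16 ± 0.19 (SE, n = 6 per diet) for Etfb and -0.22 ± 0.36 (SE, n = 6 per diet) for Etfdh, and without HFB 6 and CTL 14 they were 0.07, -0.05 and -0.20.

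The trifunctional protein carries out the hydratase, 3-hydroxyacyl-CoA dehydrogenase and thiolase steps for long chains, with Hadha as its alpha and Hadhb as its beta subunit. The genes lie head to head. In RefSeq's GRCr8 assembly, which is not the build named for the counts, their start sites are 301 bases apart on opposite strands of chromosome 6, and the promoter windows, from 250 bases before to 50 after each start, share 200 bases. The windows are shown because 1 stretch of sequence precedes both subunits of a complex whose counts parted between libraries. They are Hadha at chr6:31907551-31907850 on the plus strand and Hadhb at chr6:31907451-31907750 on the minus strand, each 5′ to 3′ on the strand of its gene, and capitals mark the letters AGGTCA or their reverse complement.
Hadha: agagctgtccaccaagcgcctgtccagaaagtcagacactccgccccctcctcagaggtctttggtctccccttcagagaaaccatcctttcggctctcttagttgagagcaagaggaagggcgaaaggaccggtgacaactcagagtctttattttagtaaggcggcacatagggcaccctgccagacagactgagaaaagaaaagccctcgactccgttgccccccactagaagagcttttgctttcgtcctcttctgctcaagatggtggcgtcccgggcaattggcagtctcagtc
Hadhb: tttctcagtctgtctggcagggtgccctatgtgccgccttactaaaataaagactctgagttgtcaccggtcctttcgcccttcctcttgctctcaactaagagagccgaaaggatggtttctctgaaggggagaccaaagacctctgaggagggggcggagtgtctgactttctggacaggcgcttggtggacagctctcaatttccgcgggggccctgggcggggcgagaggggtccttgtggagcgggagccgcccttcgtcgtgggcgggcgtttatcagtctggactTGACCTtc
The only match in either window lies after the start site of Hadhb, outside the shared stretch. Hadha had 49.5, 29.4, 23.0, 31.6, 9.77 and 1.55 CPM in HFB 1 to HFB 6. In CTL 7 to CTL 11 and CTL 14 it had 31.2, 27.1, 31.7, 45.9, 28.5 and 4.15 CPM. HFB 6, CTL 14 and HFB 5 were the lowest, with 4, 12 and 25 counts, and the others had at least 59. Hadhb had 202 to 533 CPM (median 475) in HFB and 181 to 564 CPM (median 437) in CTL, and HFB 5 was at 383 CPM. Counts of Hadha per 100 counts of Hadhb were 9.30, 6.26, 4.49, 6.59, 2.55 and 0.766 in the HFB libraries in order and 7.47, 4.80, 6.95, 9.95, 7.60 and 2.29 in the CTL libraries. Both subunits were low in HFB 6 and CTL 14, Hadha by much more, and in HFB 5 Hadha was low while Hadhb was close to the other libraries. The size of the ratio is not read, since lengths were not used, and only its course over the libraries is described. By SD of log2 CPM over the 12 libraries Hadha varied more than 97.5% of the genes tested and Hadhb more than 67.6%. The log2 change between diets was -0.23 ± 0.60 (SE, n = 6 per diet) for Hadha and 0.07 ± 0.26 (SE, n = 6 per diet) for Hadhb, and with HFB 5, HFB 6 and CTL 14 left out, chosen after the data had been seen, it was 0.01 ± 0.22 (SE) for Hadha.

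**Figure D4:**
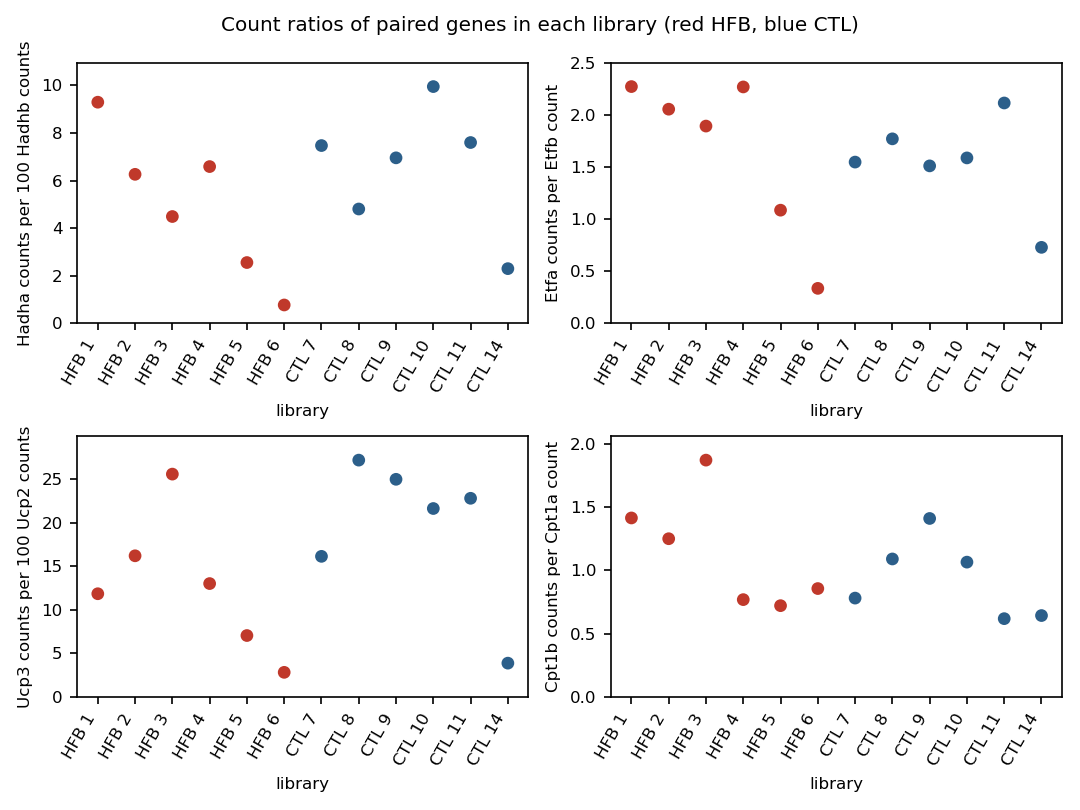
Counts of Hadha per 100 counts of Hadhb, Etfa per count of Etfb, Ucp3 per 100 counts of Ucp2 and Cpt1b per count of Cpt1a (vertical axes) in each library (horizontal axes), red for HFB and blue for CTL. In the first 3 panels HFB 6, CTL 14 and HFB 5 are the lowest points, with 0.766, 2.29 and 2.55 counts of Hadha per 100 of Hadhb, and in the last they are not set apart.

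Hadh acts on shorter 3-hydroxyacyl chains, Echs1 is the short chain hydratase and Acaa2 the mitochondrial thiolase. Over the 12 libraries Hadh ran from 179 to 606 CPM, Echs1 from 190.0 to 561 CPM and Acaa2 from 283 to 685 CPM. CTL 14 was lowest and HFB 6 next for each of them. Without this pair the ranges narrowed to 399 to 606, 386 to 561 and 493 to 685 CPM. Counting the trifunctional subunits, 4 of 5 genes of these steps in HFB 6 and 5 of 5 in CTL 14 were more than 1 log2 unit below their median. This held for 18.7% and 12.5% of all genes tested.

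Double bonds need auxiliary enzymes, the enoyl-CoA isomerases Eci1 and Eci2 and the dienoyl-CoA reductases Decr1 of mitochondria and Decr2 of peroxisomes. Decr1 had 256 to 384 CPM (median 334) in HFB and 168 to 371 CPM (median 298) in CTL. The diets overlapped, 5 of 6 HFB libraries lay above the CTL median, and the log2 change was 0.21 ± 0.17 (SE, n = 6 per diet) with an unadjusted p of 0.237 in edgeR. Eci1 ran from 101 to 208 CPM, Eci2 from 51.9 to 163 CPM and Decr2 from 14.9 to 26.3 CPM. Eci1, Eci2 and Decr1 were lowest in CTL 14, and Decr2 was lowest in CTL 11. More than 1 log2 unit below their median were 0 of these 4 genes in HFB 6 and 1 in CTL 14, beside 18.7% and 12.5% of all genes tested.

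In the peroxisome, Abcd2 and Abcd3 import acyl-CoA, Acox3 is an oxidase for branched chains, Ehhadh and Hsd17b4 encode bifunctional enzymes, Acaa1a a thiolase, and Pex11a takes part in peroxisome division. Abcd2, known for its use in adipocytes, had 388, 304, 335, 437, 242 and 111 CPM in HFB 1 to HFB 6. In CTL 7 to CTL 11 and CTL 14 it had 272, 425, 343, 351, 303 and 57.4 CPM. It was lowest in CTL 14 and next in HFB 6, HFB 4 was above every CTL library, and the diets otherwise overlapped. Acox3 had 62, 39, 31, 64, 9 and 0 counts in HFB 1 to HFB 6, and 52, 26, 51, 61, 56 and 18 counts in the CTL libraries in order. The count of 0 in HFB 6 allows a level of up to 1.16 CPM, the medians were 14.5 CPM in HFB and 19.1 CPM in CTL, and HFB 5 and CTL 14 were next lowest. Acox3 had the largest SD of log2 CPM of the 33 genes, 1.48, and the log2 change between diets was -0.33 ± 0.65 (SE, n = 6 per diet). Ehhadh had 6.20 to 39.4 CPM (median 25.3) in HFB and 8.65 to 32.7 CPM (median 23.3) in CTL, with HFB 6 and CTL 14 the lowest. Hsd17b4 and Pex11a, which ran from 65.5 to 208 CPM and from 48.1 to 166 CPM, had the same lowest libraries. Acaa1a was an exception. It had 78.4 to 139 CPM (median 111) in HFB and 90.0 to 111 CPM (median 102) in CTL, with HFB 5 and HFB 6 the highest, and its log2 change was 0.15 ± 0.14 (SE, n = 6 per diet). Its close copy Acaa1b ran alongside, from 99.4 to 179 CPM, and since the counting rules were not given in the sources used here, reads of the copies could have been shared between them. Abcd3 varied least of the group, from 60.9 to 104 CPM. More than 1 log2 unit below their median were 5 of 7 peroxisomal genes in HFB 6 and 5 of 7 in CTL 14. The shares of all genes tested were 18.7% and 12.5%.

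Acetyl-CoA units are joined or split by Acat1, and ketone bodies are interconverted by Bdh1 and activated for use by Oxct1. Acat1 ran from 118 to 382 CPM and Oxct1 from 147 to 602 CPM. Without HFB 6 and CTL 14, which held the lowest places, the ranges were 272 to 382 and 353 to 602 CPM. Bdh1 was thinly counted and went its own way, with 31, 24, 5, 9, 13 and 16 counts in HFB 1 to HFB 6. The CTL libraries in order had 19, 9, 7, 23, 15 and 43 counts. CTL 14, low for most genes, was the highest library for Bdh1 at 14.9 CPM, followed by HFB 1 at 12.8 CPM, and HFB 3, highest for 12 other members, was the lowest at 1.95 CPM. The log2 change between diets was -0.12 ± 0.48 (SE, n = 6 per diet), and 0.25 ± 0.47 (SE) without HFB 6 and CTL 14.

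Ucp2 and Ucp3 encode mitochondrial carriers of the uncoupling protein family. Ucp3 is known from muscle and brown fat and rises with fatty acid supply, and Ucp2 is widely used and high in immune cells. The genes are neighbours on the plus strand of chromosome 1 in GRCr8, with start sites 23463 bases apart, at windows chr1:164227660-164227959 for Ucp3 and chr1:164251123-164251422 for Ucp2. Their promoters are shown because neighbouring genes of 1 family went in opposite directions in HFB 6 and CTL 14. Another reason is that Ucp3 and Acadvl were the only members with 2 matches to AGGTCA, marked in capitals.
Ucp3: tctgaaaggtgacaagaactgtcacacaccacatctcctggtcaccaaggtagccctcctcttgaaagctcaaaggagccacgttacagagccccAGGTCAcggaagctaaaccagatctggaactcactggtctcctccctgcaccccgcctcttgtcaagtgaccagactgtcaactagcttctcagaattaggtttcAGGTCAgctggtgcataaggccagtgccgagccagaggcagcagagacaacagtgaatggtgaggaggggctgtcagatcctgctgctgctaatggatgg
Ucp2: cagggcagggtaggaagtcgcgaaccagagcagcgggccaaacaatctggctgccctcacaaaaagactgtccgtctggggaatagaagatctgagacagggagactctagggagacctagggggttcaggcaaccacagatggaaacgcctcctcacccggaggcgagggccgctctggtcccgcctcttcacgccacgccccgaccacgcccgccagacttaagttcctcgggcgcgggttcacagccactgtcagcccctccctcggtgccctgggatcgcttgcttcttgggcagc
In Ucp3 the matches begin 155 and 50 bases before the start site, and Ucp2 has none in this window. Ucp3 had 18.6, 35.5, 29.2, 19.2, 14.8 and 6.59 CPM in HFB 1 to HFB 6. In CTL 7 to CTL 11 and CTL 14 it had 25.8, 29.9, 35.6, 32.0, 33.4 and 10.03 CPM. HFB 6 and CTL 14 were the lowest, and HFB 1, HFB 4 and HFB 5 lay below the 5 other CTL libraries while HFB 2 and HFB 3 lay among them. Ucp2 had 114 to 235 CPM (median 184) in HFB and 109.9 to 259.9 CPM (median 147) in CTL. CTL 14, at 259.9 CPM, and HFB 6, at 235 CPM, were its highest libraries, and the next CTL library was at 159.9 CPM. Counts of Ucp3 per 100 counts of Ucp2 ran from 2.81 in HFB 6 and 3.86 in CTL 14 to 27.2 in CTL 8. Between the diets the log2 change was -0.44 ± 0.36 (SE, n = 6 per diet) for Ucp3, with an unadjusted p of 0.249 in edgeR, and 0.16 ± 0.23 (SE, n = 6 per diet) for Ucp2. Without HFB 6 and CTL 14 the change of Ucp3 was -0.43 ± 0.22 (SE), with an unadjusted p of 0.0725 and an adjusted p of 0.919.

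Promoters were matched for 29 of the 33 genes in the RefSeq GRCr8 table, and Cpt1b, Acadl, Acaa2 and Decr1 were not matched. AGGTCA, the hexamer that nuclear receptors such as the PPARs bind as a repeat, was found on either strand in 8 of 29 windows, and in 16.2% of the 33465 windows of 300 bases in the table. Besides Acadvl and Ucp3 these were Hadhb, Echs1, Eci1, Eci2, Abcd2 and Hsd17b4. A direct repeat of AGGTCA with 1 base between was in 0 of 29 windows and in 18 of all windows, or 0.0538%. A match describes letters in a short window, and sites farther off were not searched. Of the 6 members with the largest SD of log2 CPM, Ucp3 had 2 matches, Abcd2 had 1, and Acox3, Hadha, Etfdh and Bdh1 had 0.

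The variation between libraries was then set against scores of muscle, brown fat and fat cells, fitted across all genes with the diet as a covariate. The skeletal muscle score, over 13 genes, ran from 3.90 in CTL 10 to 8.80 in HFB 6. Its slope passed an adjusted p of 0.05 upward for 0.683% of the genes tested (64 genes) and downward for 0%, and for 0 of the 33 members in either direction, with 647 genes and 0 members at an unadjusted p under 0.05. Leaving out 1 library moved the 647 to between 307 (HFB 1) and 1063 (CTL 11). The members' median slope was -0.05 against 0.01 for all genes. The brown adipocyte score, over 7 genes, ran from 1.799 to 2.98. Ucp1, the uncoupling protein of brown fat, was at 169 CPM in CTL 9 and 113 CPM in HFB 3 and between 5.08 and 25.2 CPM in the others. Zic1 and Dio2 were at most 0.355 and 1.29 CPM, and Elovl3 was at most 2.02 CPM, in CTL 8. Lhx8 went another way than Ucp1, at 0 CPM in HFB 3 and CTL 9 and highest in CTL 14, at 6.57 CPM. Cidea ran from 72.9 CPM in HFB 6 to 353 CPM in HFB 3, and Kcnk3 from 15.2 to 54.6 CPM. Cox8b, used by brown fat and muscle alike, ran from 4.78 CPM in CTL 10 to 106 CPM in CTL 11. The brown adipocyte slope passed the adjusted threshold for 0% of the genes upward and 0% downward and for 0 members, with 262 genes and 4 members at an unadjusted p under 0.05 in edgeR. Leaving out 1 library moved the 262 to between 132 (HFB 3) and 477 (HFB 6). The members' median slope was 0.39 log2 per unit of score, with 28 of 33 above 0, and the median over all genes was 0.00, with 4661 of 9379 above 0. Epithelial markers fell with this score, at a median slope of -1.76 over 6 genes with 0 above 0. Of these, 5 had an unadjusted p under 0.05 and 0 passed the adjusted threshold in edgeR. The part of epithelial cells in the members' slopes was not tested. The median over the members was 0.22 with a prior count of 0.5 in the score and 0.22 without HFB 6 and CTL 14. For these and the next score only edgeR was run.

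With the adipocyte score 24 of the 33 members rose and 1 fell at an adjusted p of 0.05, beside 22.4% of the genes that rose (2102 genes) and 24.7% that fell (2311 genes). The median slope was 0.72 log2 per unit of score over the members and 0.03 over all genes. By role, the calls upward were 3 of 5 in the carnitine shuttle, 5 of 7 among the acyl-CoA dehydrogenases and electron transfer, 5 of 5 in the hydratase to thiolase steps, 3 of 4 among the auxiliary enzymes, 5 of 7 in the peroxisome, 2 of 3 for ketone bodies and 1 of 2 in uncoupling. The largest slopes past the threshold were those of Hadha, 2.23 ± 0.61 (SE, n = 12), Abcd2, 1.64 ± 0.25 (SE, n = 12), and Etfdh, 1.39 ± 0.24 (SE, n = 12), with adjusted p of 0.00946, 0.000244 and 0.000638 in edgeR's quasi-likelihood test. Ucp3 followed with 1.37 ± 0.24 (SE, n = 12) and Ehhadh with 1.29 ± 0.31 (SE, n = 12) , with adjusted p of 0.00067 and 0.00486 in the same edgeR fit. Ucp2 was the member that fell, with a slope of -0.56 ± 0.17 (SE, n = 12) and an adjusted p of 0.0146 in edgeR. Acads, Etfb, Acaa1a, Cpt1a, Cpt1b, Decr2, Acox3 and Bdh1 did not pass, and among them Acox3 had the largest slope, 1.55 ± 0.71 (SE, n = 12), with an adjusted p of 0.0863 in edgeR. These slopes rested on HFB 6 and CTL 14, the 2 libraries farthest from the median score. Without both, 0 genes and 0 members passed, with 597 genes and 0 members at an unadjusted p under 0.05, and the slope of Hadha was -2.66 ± 1.30 (SE, n = 10) with an adjusted p of 0.711. Ucp3 then had 1.46 ± 1.01 (SE, n = 10, adjusted p 0.753 in edgeR), and over the members the median slope was 0.12. The score covered only 10.89 to 11.25 in those 10 libraries, so that slopes could be measured there only with wide errors. Without HFB 6 alone 18 members rose and 0 fell, among 2307 genes that passed, and without CTL 14 alone 15 rose and 1 fell, among 2508 genes.

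**Figure D5:**
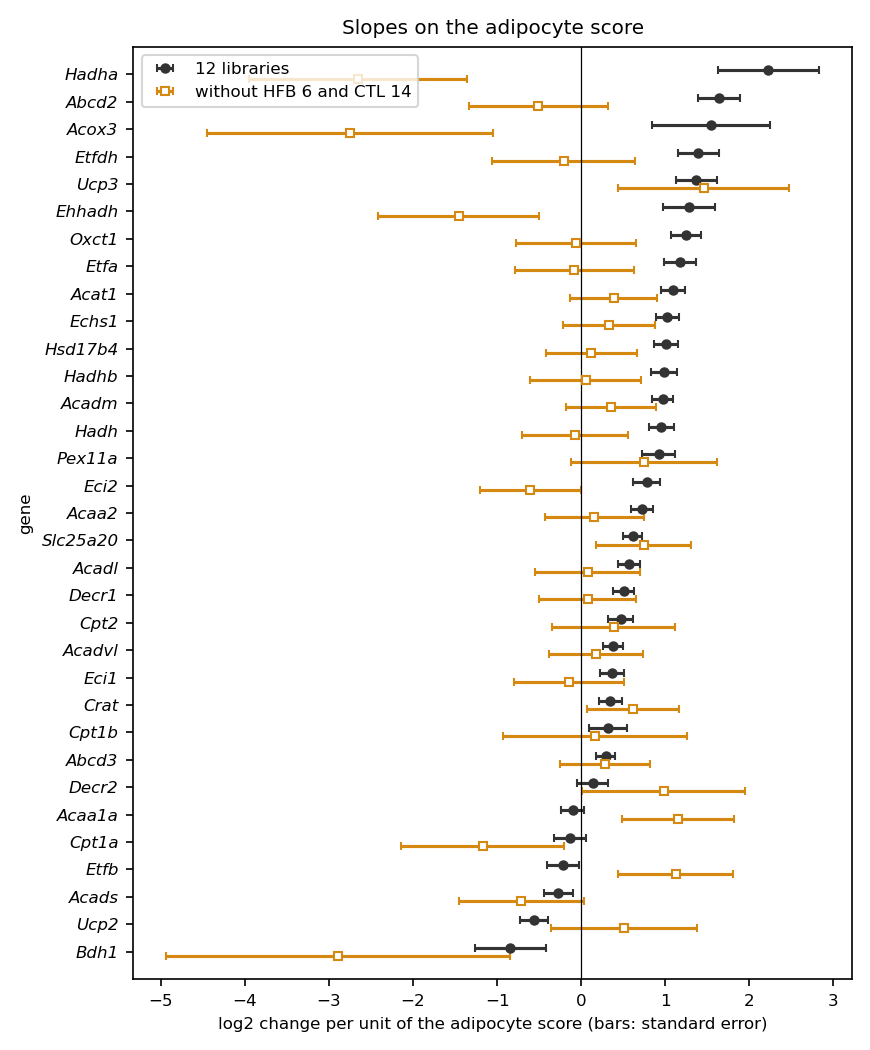
Slope of each gene on the adipocyte score, as log2 change per unit of score with its standard error, over 12 libraries (filled circles) and without HFB 6 and CTL 14 (open squares). Over 12 libraries the slopes run from -0.84 for Bdh1 to 2.23 for Hadha, and without the pair the errors are several times wider and 0 genes passed the adjusted threshold.

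The spread among the members shows the same dependence. The median SD of log2 CPM over the 12 libraries was 0.44 for the members and 0.40 for all genes tested, and without HFB 6 and CTL 14 it was 0.22 and 0.29. In the remaining 10 glands the median member thus varied less than the median gene. The genes were not matched by level here, and counting error adds most to this SD at low counts. The part of level in the difference was not tested.

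The other genes of these pathways were read in the same fits. Between the diets 0 of the 18 tested genes of a list of other oxidation genes, 0 of 9 regulators, 0 of 13 peroxisome assembly genes and 0 of 16 citrate cycle genes passed an adjusted p of 0.05 in edgeR, with 1, 0, 0 and 0 at an unadjusted p under 0.05. Among the other oxidation genes Cpt1c, a carnitine palmitoyltransferase known from brain, had a log2 change of 0.49 ± 0.35 (SE, n = 6 per diet) and Acad10, an acyl-CoA dehydrogenase, of 0.25 ± 0.20 (SE, n = 6 per diet). With the adipocyte score 10 of the 18 rose and 1 fell, beside 22.4% and 24.7% of all genes tested, and without HFB 6 and CTL 14 0 of the 18 passed.

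Among the regulators, 4 of 9 rose and 0 fell with the adipocyte score, beside 22.4% and 24.7% of all genes tested. Those that rose were Pparg, Rxra, Nrip1 and Pdk4. Pparg, the receptor known for driving fat cell formation, was at 69.4 CPM in HFB 6 and 103 CPM in CTL 14, against 279 to 482 CPM in the others, and its slope was 1.60 ± 0.20 (SE, n = 12) with an adjusted p of 0.0000520 in edgeR. Without HFB 6 and CTL 14 0 of the 9 regulators passed, and their median slope went from 0.20 to -0.40. Ppara and Ppargc1a, the receptor and coactivator that drive these genes in liver and brown fat, were at or close to the smallest detectable level, at most 2.73 and 2.57 CPM, and were not tested. Pdk4, which spares glucose when fat is burned, ran from 0 to 16.3 CPM and was below 1 CPM in HFB 5, HFB 6 and CTL 14. Ppard, a widely used receptor of the same family, had 22.5 to 35.9 CPM in HFB and 28.7 to 38.8 CPM in CTL and a log2 change of -0.20 ± 0.15 (SE, n = 6 per diet). Angptl4, a lipase inhibitor and known target of PPARs, was at 322, 336 and 352 CPM in HFB 4 to HFB 6, above every CTL library (83.0 to 218 CPM). In HFB 1 to HFB 3 it was at 75.9, 68.4 and 63.1 CPM, below every CTL library, so the log2 change of 0.61 ± 0.47 (SE, n = 6 per diet) had an unadjusted p of 0.216 in edgeR. Prkaa1, a catalytic subunit of AMP-activated kinase, had 0.781 to 8.52 CPM in HFB and 3.46 to 8.30 CPM in CTL, and its log2 change was -0.54 ± 0.42 (SE, n = 6 per diet).

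Of the 13 peroxisome assembly genes 8 rose and 1 fell with the adipocyte score, and of the 16 citrate cycle genes 15 rose and 0 fell, beside 22.4% and 24.7% of all genes tested. Both lists had 0 calls once HFB 6 and CTL 14 were left out. The citrate cycle genes were at median positions of -0.97 in HFB 6 and -1.02 in CTL 14 on the log2 scale, beside -0.70 and -1.02 for the 33 members, and the peroxisome assembly genes were at -0.92 and -0.58. Between the diets the log2 change was 0.27 ± 0.16 (SE, n = 6 per diet) for Pex16 and 0.32 ± 0.23 (SE, n = 6 per diet) for Pex6, both of peroxisome assembly. The smallest p in the citrate cycle were those of Mdh2, 0.27 ± 0.15 (SE, n = 6 per diet), Suclg1, 0.21 ± 0.16 (SE, n = 6 per diet), and Sdhb, 0.15 ± 0.14 (SE, n = 6 per diet).

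None of the 8 marker lists differed between the diets beyond the spread between libraries, by an exact permutation test on all ways to assign 6 libraries to each diet (smallest possible p 0.00216). The difference in mean log2 CPM, HFB minus CTL, was 0.37 for the skeletal muscle list (p = 0.699), -0.09 for the brown adipocyte list (p = 0.706), 0.01 for the adipocyte list (p = 0.939), -0.50 for the epithelial list (p = 0.368) in these exact tests. In the same exact tests it was 0.66 for the lymphoid list (p = 0.617), 0.28 for the macrophage list (p = 0.136), -0.30 for the endothelial list (p = 0.245) and 0.84 for the red blood cell list (p = 0.177). The smallest adjusted p over the 8 lists was 0.652 (exact permutation test). The adipocyte score was 10.90 ± 0.44 (SD, n = 6) in HFB and 10.89 ± 0.55 (SD, n = 6) in CTL. Each diet held 1 of the 2 libraries that stood apart.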

How the data were processed

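The authors deposited raw counts of reads for 16511 genes in 12 whole-gland libraries, without normalization. The submitters' processing notes name bcl2fastq, CASAVA 1.8, TopHat, DESeq and the build rn4. The counting program, annotation and use of strand were not given in the sources used here. Each diet had 6 libraries from separate litters, named by library number. Total counts were 2320267 to 2944680, and 3 counts were taken as the smallest detectable level. Symbols came from RefSeq's GRCr8 table (16351 genes), and promoters from its 300-base windows. R 4.3.3 and edgeR 4.0.16 gave the tests of diets and score slopes, by quasi-likelihood after TMM and filterByExpr, with Benjamini-Hochberg adjustment over all genes tested and a threshold of 0.05. Displayed CPM use TMM factors over all genes, and the fits recompute them over the genes tested. Scores are mean log2 CPM with a prior count of 2, and list genes were left out of their own slope counts. Lists between diets were compared by an exact permutation test.

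The alternatives were DESeq2 1.42.0, limma 3.58.1 (voom with sample weights), DESeq2's size factors, upper-quartile normalization, a filter of 10 counts per library or none, the scores as covariates, a prior count of 0.5, no diet term, and leaving out libraries. The tests were tried on simulated data. Members, lists and tests were chosen with earlier results of these data known. The genes named are the 6 with the smallest p, the 6 with the largest SD, the pairs Cpt1a and Cpt1b, Ucp2 and Ucp3, Hadha and Hadhb, and Etfa and Etfb, and for each score up to 5 called slopes in each direction. From the other lists they are up to 3 genes with the smallest p and a few fixed by name, and some genes these rules select are not reported here. The regulators that rose with the adipocyte score were named after their values had been seen. Others are given by range. No pair of libraries of a diet was closer than sampling noise (chi-square per degree of freedom at least 6.69 over 30 pairs). Figures were drawn with matplotlib 3.10.9.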

Additional observations from a re-analysis of the deposited data

Results flagged for a closer look

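In 17 of the 92 groups of 6 values examined, the lowest or highest library was separated from its nearest neighbour by more of the group's range than Dixon's 95% value for 6 allows. Chance gives about 1 in 20 groups, or 4.60 here, and the groups share libraries and so are not independent.

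In the HFB group HFB 6 was set apart below the rest for Acadm at 108 CPM, Echs1 at 199.6 CPM, Eci2 at 71.7 CPM, Acat1 at 118 CPM, the summed level of the 33 genes at 4051 CPM and the adipocyte score at 10.03.

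In the CTL group CTL 14 was set apart below the rest for Acadm at 99.7 CPM, Hadh at 179 CPM, Eci1 at 101 CPM and Hsd17b4 at 78.9 CPM. The same held for Acat1 at 133 CPM, Oxct1 at 147 CPM, the summed level at 3296 CPM and the adipocyte score at 9.77. It was set apart above the rest for Ucp2 at 259.9 CPM and the lymphoid score at 6.42. CTL 9 was set apart by a red blood cell score of 11.04, and its oxidation genes summed to 6662 CPM, within the range of the CTL group. What made HFB 6 and CTL 14 differ was not tested.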

How the results depend on the processing

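No gene passed the adjusted threshold between the diets under any of 9 other tools, filters, normalizations and covariates, with any library left out, or under the 2 exclusions chosen after seeing the data. Genes at an unadjusted p under 0.05, 220 in edgeR, numbered 271 with DESeq2, 613 with limma-voom, 573 with the adipocyte score as a covariate, 431 without HFB 6 and CTL 14 and 509 without HFB 5 as well. Leaving out a library gave 135 (HFB 5) to 587 (CTL 14), and beyond 1.5 times the count also 378 (HFB 1), 389 (HFB 4), 141 (CTL 7), 141 (CTL 10) and 137 (CTL 11). Members at that level, 1 in edgeR, were 0 with limma-voom, 2 (Acads and Ucp3) with the adipocyte score as a covariate, and 0 under both later exclusions. Leaving out a library always gave 1, Acads. The causes were not tested.

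With the adipocyte score 4413 genes and 25 members passed. Both counts were 0 without HFB 6 and CTL 14, the 2 libraries farthest from the median score. Leaving out a library gave 2307 (HFB 6) to 5093 (HFB 5) genes and 16 (CTL 14) to 25 members, and without CTL 14 the genes were 2508. The skeletal muscle count of 64 was 34 without the 2 libraries farthest from its median, CTL 10 and HFB 1. Genes at an unadjusted p under 0.05 were then 200 for that score. For the brown adipocyte score (262) they were 144 with a prior count of 0.5, 118 without CTL 9 and HFB 3, its farthest, and 533 without HFB 6 and CTL 14. The members' median slope on the muscle score (-0.05) ran from -0.094 (HFB 3 left out) to -0.0079 (HFB 6 left out), and on the brown adipocyte score from 0.26 to 0.45.

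Without HFB 6 and CTL 14 slopes on the adipocyte score that had passed changed sign, among them Hadha (2.23 to -2.66), Abcd2 (1.64 to -0.51), Etfdh (1.39 to -0.21), Ehhadh (1.29 to -1.46) and Ucp2 (-0.56 to 0.51).

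Between the diets no value had passed the adjusted threshold, and some changed sign. Etfb (0.16) was -0.069 with limma-voom, -0.052 without HFB 6 and CTL 14 and -0.15 without HFB 5 as well. Bdh1 (-0.12) was 0.014 with the adipocyte covariate and 0.25 and 0.33 in the same 2 subsets. In the smaller subset Acox3 was 0.030 and Hadha 0.010. The list differences without HFB 6 and CTL 14 were -0.019 for skeletal muscle and -0.043 for adipocytes. Leaving out each library gave log2 changes of -0.16 to 0.22 for Abcd2, -0.42 to 0.27 for Bdh1, -0.026 to 0.22 for Cpt1b, -0.093 to 0.31 for Ehhadh, -0.095 to 0.23 for Etfa, -0.021 to 0.24 for Etfb, -0.57 to 0.017 for Hadha and -0.078 to 0.21 for Hadhb. Without a change of sign the ranges were -0.61 to -0.063 for Acox3, -0.39 to -0.029 for Etfdh, -0.27 to -0.019 for Cpt1a, 0.054 to 0.37 for Ucp2, -0.65 to -0.26 for Ucp3, 0.083 to 0.24 for Acaa1a, 0.33 to 0.56 for Acads, 0.089 to 0.29 for Cpt2 and 0.11 to 0.29 for Decr1. For the lists it gave -0.21 to 0.19 (adipocyte), -0.21 to 0.017 (brown adipocyte), -0.033 to 1.52 (lymphoid), -0.15 to 0.81 (skeletal muscle), -0.39 to -0.15 (endothelial), -0.73 to -0.21 (epithelial), 0.17 to 0.36 (macrophage) and 0.50 to 1.21 (red blood cell).

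No paired analysis was possible because no number joins a library of one diet to a library of the other. At this depth Acox3, Bdh1 and Hadha rest on few counts in some libraries, and the filter of at least 10 counts in every library kept 30 of the 33 genes.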

Other observations

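HFB 5 had an adipocyte score of 11.13, within the range of the other libraries, and a summed level of 6221 CPM for the 33 genes. A set of genes was low in HFB 5, HFB 6 and CTL 14 together. The genes below, from the fixed lists, were chosen after their values had been seen and describe only these libraries. Acadsb, the dehydrogenase of short branched chains, was at 0.391, 2.33 and 1.38 CPM in HFB 5, HFB 6 and CTL 14, against 15.8 to 34.3 CPM in the other 9. Citrate synthase, Cs, was at 89.5, 56.2 and 69.9 CPM, against 199 to 319 CPM. Rxra, the partner receptor of the PPARs, was at 5.47, 1.94 and 3.46 CPM, against 12.6 to 26.3 CPM. Acad11, another acyl-CoA dehydrogenase, was at 99.2, 29.5 and 41.2 CPM, against 123 to 202 CPM. The lymphoid score of HFB 5 was 1.04. The same 3 libraries had the highest epithelial scores, 6.46 in HFB 5, 6.43 in HFB 6 and 6.55 in CTL 14, followed by CTL 7 at 6.21. The summed level of the 6 epithelial genes was 115, 167, 144, 383, 608 and 633 CPM in HFB 1 to HFB 6 and 502, 306, 178, 372, 447 and 624 CPM in the CTL libraries in order. None of these genes was at 0 in any library, and Krt8 was the most abundant in HFB 5, HFB 6 and CTL 14. The part of epithelial cells, or of any other cells, in these low levels was not tested.

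Among the 4 vessel markers Pecam1 was at 248 CPM in HFB 6 and 236 CPM in CTL 14, against 27.2 to 60.2 CPM elsewhere. Tie1 was at 111 and 124 CPM, against 32.5 to 54.1 CPM elsewhere. Tek, at 44.6 and 50.2 CPM, was within its range of 30.9 to 69.9 CPM in the others. The endothelial score was 5.52 in HFB 6 and highest in CTL 14, at 6.33. Cdh5 was at 5.47, 2.71 and 27.0 CPM in HFB 5, HFB 6 and CTL 14, against 16.4 to 46.5 CPM in the other libraries.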
